A study of Homo sapiens with 27 samples.

Results

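TADA2B knockout cells were compared with control cells in DMSO, the drug solvent, with no kinase inhibitor present. The comparison holds 9 of the 27 RNA-seq libraries of the series, chosen by their titles: 3 libraries of TADA2B knockout cells made with guide 1, 3 made with guide 2, and 3 of control cells with a guide against GFP, a jellyfish gene that human cells lack. All 9 are A375 cells, an established human melanoma line that carries an activating mutation of the kinase BRAF, grown in DMEM with 10% FBS and kept in DMSO for 24 h before RNA extraction. The genotype label of the GFP-guide cells is WT, and the labels' protocol calls them non-targeting. Whether the cells of each guide are a clone or a pool is not given in the sources used here. The other 18 libraries are the same 3 cell populations in 20 nM trametinib, which blocks the kinase MEK, or in 1 µM vemurafenib, which blocks mutant BRAF. The knockout effect averages the guides and is given over the control, on the log2 scale, and the guides were also set against the control and against each other.

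TADA2B is an adaptor of the histone acetyltransferase module of SAGA, a coactivator complex that acetylates histone H3 at gene promoters. In that module it sits with TADA3, SGF29 and one of the catalytic subunits KAT2A and KAT2B, while other SAGA modules remove ubiquitin from histones or contact activators and the transcription machinery. A related complex, ATAC, uses TADA2A in place of TADA2B. Melanoma cells can move between a pigmented melanocytic state, a neural crest-like state and undifferentiated states, and these states differ in how they respond to inhibitors of BRAF and MEK.

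The authors deposited read counts per gene. The 9 DMSO libraries held 68688863 to 87823864 counts, and 25199 of 58721 genes passed the filter on low counts. On a principal component analysis of these 9 libraries, component 1, with 56.7% of the variance, separated the 6 knockout libraries from the 3 control libraries, and component 2, with 8.03%, separated the guides. Mitochondrial genes took 2.33% to 2.74% of counts with guide 1 and 2.50% to 2.67% with guide 2, against 1.58% to 1.68% in control libraries. The TMM scaling factors were 0.938 to 0.950 with guide 1 and 0.965 to 0.976 with guide 2, against 0.866 to 0.884 in control libraries. The labels do not say that replicates came from separate cultures, so p-values measure only how far these libraries spread, and that spread may be technical. All values are bulk averages, in which fewer cells of a kind and less RNA per cell cannot be told apart.

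Markers of the melanoma lineage were present and fell in sum. The 10 listed melanoma markers, which include SOX10, MITF and S100B, summed to 1161 to 1176 CPM (read counts scaled to a common, TMM-adjusted library total) with guide 1 and to 814 to 841 CPM with guide 2, against 2162 to 2287 CPM in control libraries. Of these 10 markers 3 were called higher, PMEL, MLANA and TYRP1, and 6 lower, and SOX10 was a large part of the sum in each group. TYR, the pigment enzyme, was at or near 0 throughout. Defining markers of other cell types were low. Fibroblast markers, with 9 of 10 passing the filter, summed to 50.2 to 52.9 CPM with guide 1 and 59.5 to 61.6 CPM with guide 2, against 22.2 to 23.9 CPM in control libraries, with LUM and COL1A1 among the members that rose and PDPN and THY1 near 0. Leukocyte markers, with 9 of 12 passing, summed to 38.4 to 40.2 CPM with guide 1 and 29.1 to 30.2 CPM with guide 2, against 19.4 to 19.7 CPM in control libraries, and most of that was lysozyme, LYZ. The pan-leukocyte gene PTPRC had at most 0.159 CPM in any of the 9 libraries. Endothelial markers, with 6 of 8 passing, summed to 8.49 to 9.51 CPM with guide 1 and 8.44 to 9.05 CPM with guide 2, against 16.4 to 16.9 CPM in control libraries. Although the endothelial sum fell, 3 of its members were called higher and 1 lower, with a median log2 fold change of 0.44. The part of these markers in the results was not tested.

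The transcript of the targeted gene was measured first. TADA2B (chr4:7041899-7057952 on hg38) had 29.6, 31.1 and 30.6 CPM with guide 1 and 29.0, 27.3 and 29.6 CPM with guide 2, against 30.2, 31.2 and 32.1 CPM in control libraries. Guide 1 libraries overlapped the control libraries, and guide 2 libraries lay just below them. The knockout effect was a log2 fold change of -0.08 ± 0.04 (SE), with an adjusted p of 0.0629 in edgeR's quasi-likelihood test, and the fall with guide 2 alone, -0.12, was called. Both are near the threshold: the knockout effect was called with DESeq2, at -0.09 (adjusted p = 0.0305), and the guide 2 effect was not called without the low-count filter (adjusted p = 0.0525 in edgeR). A guide that shifts the reading frame can leave the transcript in place, so these counts do not check the labels at the level of the protein.

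The knockout changed a large share of the transcriptome in DMSO. Of 25199 genes tested, 14593 were called at an adjusted p under 0.05 (57.9%), 7380 higher (29.3%) and 7213 lower (28.6%) in knockout cells. Of the 15826 protein-coding genes among them, 71.1% were called, 5712 higher and 5533 lower. The counts in the gene lists below are to be read beside these. The larger changes were mostly rises, with 2279 genes at least 2-fold higher (9.04%) and 899 at least 2-fold lower (3.57%). With a stricter filter, CPM above 1 in at least 3 libraries, these were 1271 and 454, since fewer low genes were tested. The 6 knockout libraries all lay above the 3 control libraries for 6158 genes (24.4%) and all below them for 6196 genes (24.6%). The median log2 fold change over all genes tested was 0.00. With the genes split by mean level into 4 groups of like size, the lowest held 982 at least 2-fold rises and 391 such falls, while the highest held 70 of each. Among the highest genes the calls leaned the other way, with 1991 higher and 3152 lower. Low genes could pass the filter through only the 3 libraries where they were high, and more groups in the fit were knockout than control. The part of this in the large rises of the lowest group was not tested.

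**Figure D1:**
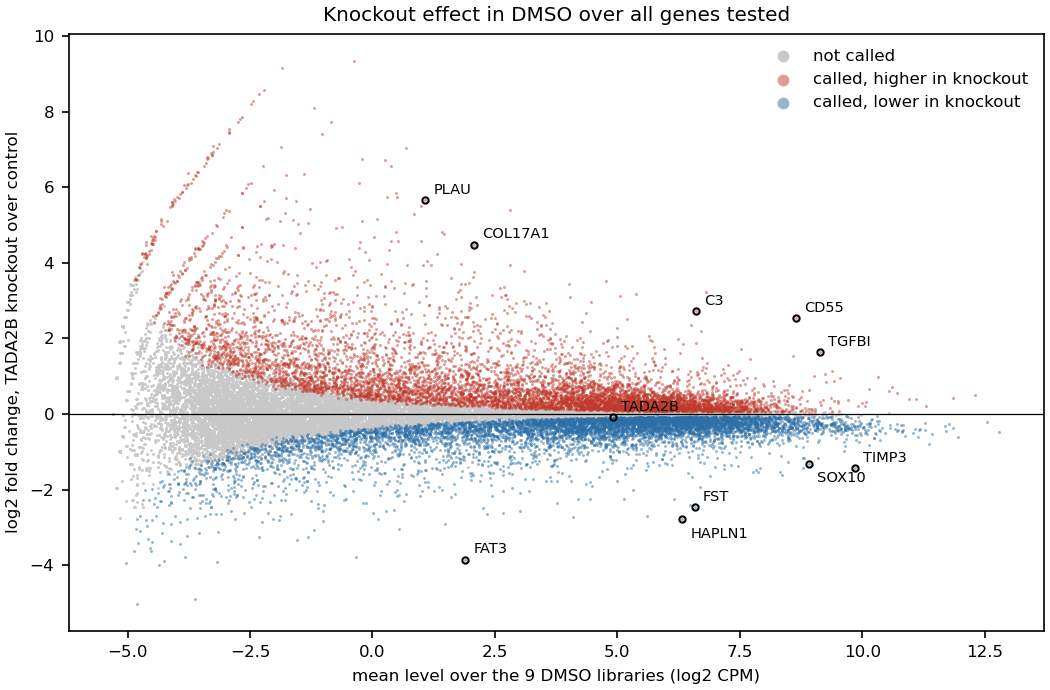
Knockout effect in DMSO for each of 25199 genes: the x axis is the mean level over the 9 libraries (log2 CPM) and the y axis the log2 fold change, mean of both TADA2B guides over control. Red points were called higher, blue points called lower and grey points not called, circles mark named genes. Large rises stretch across low and middle levels, and TADA2B itself lies at -0.08.

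The largest rises among well-measured protein-coding genes included a secreted protease, a surface receptor and a junction protein. PLAU encodes urokinase, the protease that turns plasminogen into plasmin. It had 5.98, 5.30 and 5.44 CPM with guide 1 and 11.2, 9.71 and 9.44 CPM with guide 2, against 0.0971, 0.143 and 0.201 CPM in control libraries. As that rule required, every knockout library lay above every control library, and guide 2 libraries lay above guide 1 libraries. The log2 fold change was 5.67 ± 0.19 (adjusted p = 1.05e-29 in edgeR), a 50.8-fold difference that rests on few counts in control cells. TNFRSF9, the costimulatory receptor 4-1BB, had 6.14, 6.58 and 6.73 CPM with guide 1 and 10.2, 9.60 and 9.44 CPM with guide 2, against 0.291, 0.324 and 0.230 CPM in control libraries. COL17A1, the transmembrane collagen of hemidesmosomes, had 11.7, 9.73 and 12.0 CPM with guide 1 and 12.2, 11.6 and 12.8 CPM with guide 2, against 0.388, 0.584 and 0.588 CPM in control libraries. TNFRSF9 rose 27.9-fold and COL17A1 22.3-fold, and the guides lay close together for COL17A1.

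A further 11 of the 15 largest rises had log2 fold changes between 3.52 and 4.22. Signalling genes among them were RGS4, which shortens G protein signals (4.22), GPRC5C, an orphan receptor (3.77), and PTPRE, a tyrosine phosphatase (3.52). PTPRE had 50.8, 51.2 and 51.5 CPM with guide 1 and 73.3, 71.0 and 73.8 CPM with guide 2, against 5.27, 4.92 and 5.80 CPM in control libraries. DIO2, which activates thyroid hormone, rose by 4.05, the phospholipase LIPH by 3.98, and MAP2, a microtubule protein of neurons, by 3.95. IGFN1 (3.94), ELFN2 (3.94) and DMBT1 (3.77), a secreted scavenger-receptor protein, followed. The remaining pair, OASL and IFI44L, are interferon-stimulated genes and are given with that group.

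Among the well-measured protein-coding genes FAT3, an atypical cadherin, fell most. FAT3 had 1.53, 1.77 and 1.65 CPM with guide 1 and 1.40, 1.22 and 1.49 CPM with guide 2, against 21.7, 21.6 and 21.7 CPM in control libraries. It was 14.4-fold lower in knockout cells, with a log2 fold change of -3.85 ± 0.08 (adjusted p = 1.64e-37 in edgeR), and the groups were far apart. HAPLN1, which links hyaluronan to proteoglycans, had 56.7, 55.3 and 56.7 CPM with guide 1 and 31.5, 31.4 and 30.4 CPM with guide 2, against 291, 284 and 295 CPM in control libraries. SOX11, a transcription factor of neural progenitors, had 34.4, 31.0 and 33.0 CPM with guide 1 and 19.8, 21.4 and 20.6 CPM with guide 2, against 176, 176 and 158 CPM in control libraries. FST, follistatin, a secreted antagonist of activin, had 68.5, 65.0 and 68.2 CPM with guide 1 and 40.1, 45.6 and 43.7 CPM with guide 2, against 299, 299 and 299 CPM in control libraries. As the naming rule required, all knockout libraries lay below all control libraries for these 3 genes, and guide 2 libraries were lowest. Other matrix and adhesion genes among the 15 largest falls were ITGA9, an integrin chain (-2.74), ITIH5 (-2.65) and HMCN1 (-2.41), both extracellular matrix proteins. CHRDL1, an antagonist of bone morphogenetic proteins, fell by 2.26 on the log2 scale. Channel and transport genes were SLC24A2 (-2.92), FXYD3 (-2.63) and ANO4 (-2.58). The transcription factors PKNOX2 (-2.49) and RXRG (-2.35), TMEM178B (-2.25) and the phosphodiesterase PDE3A (-2.25) complete the set.

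**Figure D2:**
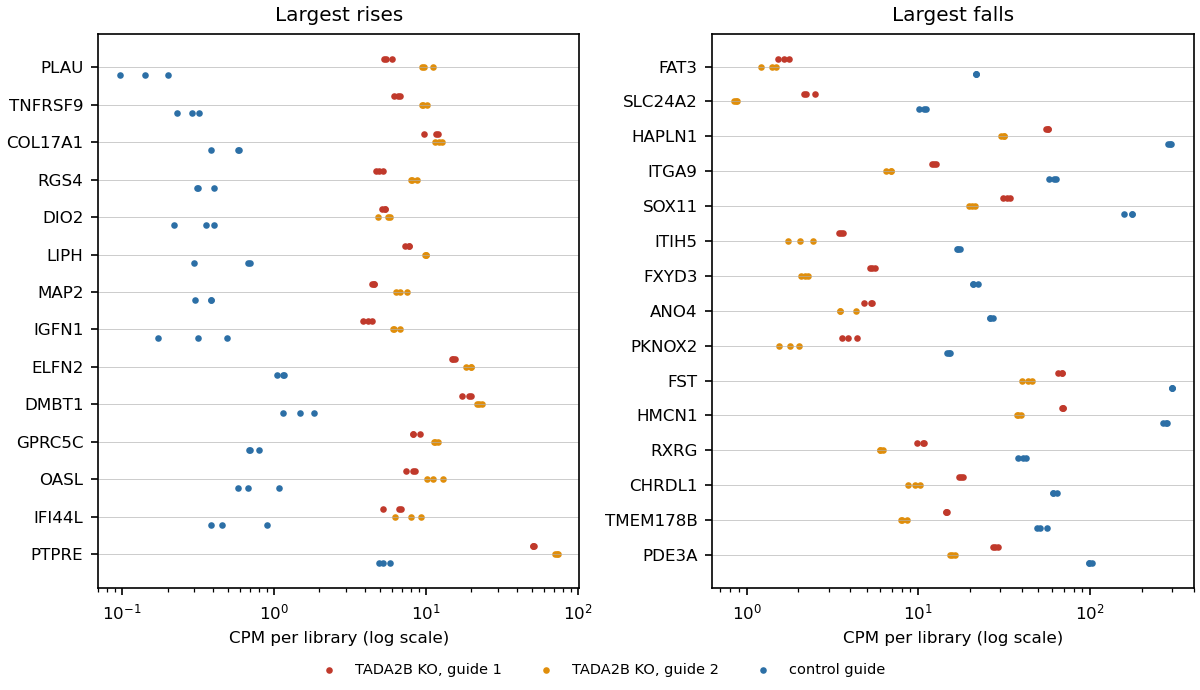
CPM in each of the 9 DMSO libraries (log x axis) for 14 of the 15 largest rises (left panel) and the 15 largest falls (right panel). For each gene the rows run from TADA2B knockout guide 1 (red) and guide 2 (orange) to the control guide (blue), 3 points each. For every gene drawn the 6 knockout libraries lie apart from the 3 control libraries, which the naming rule required. For FST the control libraries are all at 299 CPM.

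Of the 10 largest rises measured by the difference in CPM, 4 were mitochondrial genes, MT-CO2 first, and they are given with that group. CD55, the complement decay-accelerating factor, had 712, 743 and 734 CPM with guide 1 and 706, 717 and 681 CPM with guide 2, against 122, 120 and 127 CPM in control libraries. TGFBI, a matrix protein named for its induction by TGF-beta, had 781, 805 and 809 CPM with guide 1 and 858, 829 and 801 CPM with guide 2, against 260, 264 and 267 CPM in control libraries. TGM2, the crosslinking enzyme transglutaminase 2, had 463, 464 and 468 CPM with guide 1 and 658, 649 and 650 CPM with guide 2, against 183, 191 and 192 CPM in control libraries. CD55 rose 5.81-fold, TGFBI 3.09-fold and TGM2 2.91-fold, and the guides lay close together except for TGM2. Fibronectin, FN1 (1.14), the EGFR inhibitor ERRFI1 (1.07) and the lipid transporter GRAMD1B (0.87) rose too.

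Among the 10 largest falls in CPM, ranked under the same conditions, were housekeeping and cytoskeletal genes. TIMP3, a secreted inhibitor of metalloproteinases, had 819, 819 and 798 CPM with guide 1 and 548, 541 and 533 CPM with guide 2, against 1738, 1792 and 1805 CPM in control libraries. GAPDH, an enzyme of glycolysis, had 3642, 3782 and 3761 CPM with guide 1 and 3219, 3279 and 3173 CPM with guide 2, against 5208, 5236 and 5383 CPM in control libraries. Both fell, TIMP3 by 1.42 and GAPDH by 0.61 on the log2 scale, and the naming rule required that knockout and control libraries not overlap. The others were glycogen phosphorylase PYGB (-0.97), the matrix protein TNC (-0.81), the G protein subunit GNAS (-0.79), the DNA repair kinase PRKDC (-0.74), vimentin VIM (-0.69), LDHA (-0.64), CD74 (-0.63) and actin ACTG1 (-0.62).

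**Figure D3:**
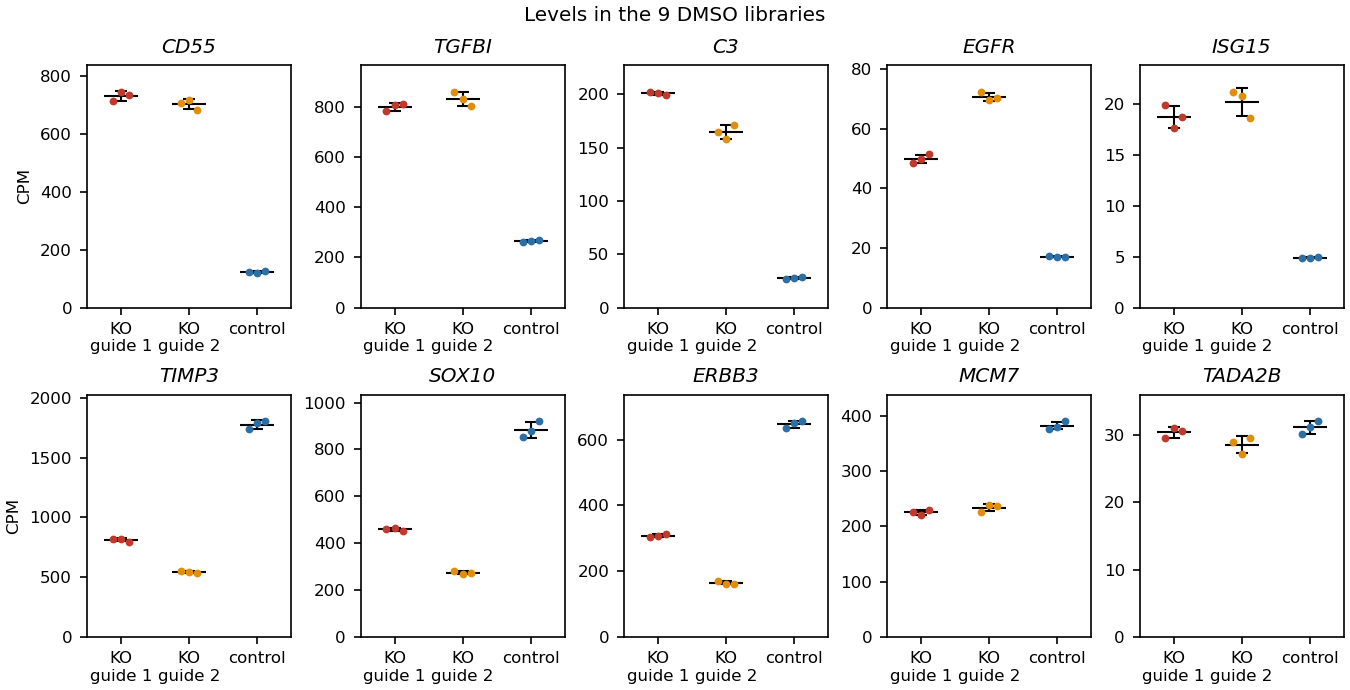
CPM (linear y axes from 0) of 10 genes in the DMSO libraries, with TADA2B knockout guide 1, knockout guide 2 and control from left to right, 3 points each; bars are the mean and SD of 3 libraries. CD55, TGFBI, C3, EGFR and ISG15 are higher and TIMP3, SOX10, ERBB3 and MCM7 lower in every knockout library, while TADA2B with guide 1 overlaps the control and with guide 2 lies just below it.

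Interferon-stimulated genes were higher in knockout cells in almost the whole group, from sensors to effectors. Of 51 listed genes 50 passed the filter, and 46 rose and 2 fell, against 29.3% of all genes called higher and 28.6% called lower. Their median log2 fold change was 1.09 and 27 rose at least 2-fold. OASL, a 2′-5′ oligoadenylate synthetase-like protein, had 8.50, 8.32 and 7.42 CPM with guide 1 and 13.0, 11.2 and 10.2 CPM with guide 2, against 0.583, 1.08 and 0.675 CPM in control libraries. IFI44L had 6.93, 5.26 and 6.63 CPM with guide 1 and 9.25, 8.00 and 6.28 CPM with guide 2, against 0.902, 0.454 and 0.388 CPM in control libraries. OASL rose 12.3-fold and IFI44L 12.1-fold, and the rule that ranked them required no overlap between knockout and control libraries. The ubiquitin-like modifier ISG15 had 19.9, 17.7 and 18.8 CPM with guide 1 and 21.2, 20.8 and 18.7 CPM with guide 2, against 4.86, 4.92 and 4.97 CPM in control libraries. Both guides lay far above the control, 3.97-fold in their mean, with a log2 fold change of 1.99 ± 0.07. The antiviral GTPase MX1 rose by 1.91, the synthetase OAS2 by 1.95, the mitochondrial protein IFI27 by 3.59, IFI6 by 1.62 and the ubiquitin ligase TRIM22 by 2.95. All 7 measured sensors rose, among them RIGI, which detects viral RNA (1.95). All 5 transcription factors rose. IRF9, which binds the response element of these genes, rose by 0.96 and IRF7, which induces interferon genes, by 1.87. The falls were small, -0.09 for IFI16, a sensor of DNA listed here as an effector, and -0.19 for MX2.

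The promoters of these genes often carry the interferon-stimulated response element (ISRE), the letters to which STAT and IRF proteins bind, searched here on both strands as GAAA, any 2 bases and GAAA in the 250 bases before to 50 after the start of each gene in RefSeq (GRCh38.p14). The letters were in the window of 23 of the 36 listed interferon-stimulated genes with a RefSeq promoter entry (63.9%), against 429 of 14264 tested genes with an entry (3.01%). Over the genes at least 2-fold higher in knockout cells the share was 67 of 1266 (5.29%), and over those at least 2-fold lower it was 8 of 431 (1.86%). The 120 bases just upstream of the start are shown for 4 members that rose, 5′ to 3′ on the strand of the gene, with matches on either strand in capitals. IFI44L (chr1:78620328-78620447, plus strand) has 1 match, IFI27 (chr14:94110616-94110735, plus strand) and IFI6 (chr1:27672193-27672312, minus strand) have 2 each, and ISG15 (chr1:1013377-1013496, plus strand) has 2 that overlap.
IFI44L: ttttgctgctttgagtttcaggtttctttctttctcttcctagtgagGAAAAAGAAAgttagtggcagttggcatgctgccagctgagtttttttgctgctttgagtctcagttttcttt
IFI27: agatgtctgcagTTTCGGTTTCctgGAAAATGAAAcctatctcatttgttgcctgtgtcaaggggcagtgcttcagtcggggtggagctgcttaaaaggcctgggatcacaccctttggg
IFI6: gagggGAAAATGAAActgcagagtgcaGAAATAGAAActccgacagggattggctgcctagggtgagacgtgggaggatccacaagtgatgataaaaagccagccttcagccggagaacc
ISG15: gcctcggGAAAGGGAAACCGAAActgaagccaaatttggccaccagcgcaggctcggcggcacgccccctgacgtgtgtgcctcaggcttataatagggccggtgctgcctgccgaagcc

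Genes of antigen presentation differed by class and by guide. All 17 genes of MHC class I and peptide loading were called higher in the mean of both guides, by a median of 0.43. With guide 1 alone 17 were called higher, with a median of 0.51, and with guide 2 alone 13, with a median of 0.42. Set against guide 1, guide 2 was called lower for 8 of the 17 and higher for 0. NLRC5, the transcriptional activator of class I genes, had 27.8, 25.5 and 25.4 CPM with guide 1 and 28.1, 28.9 and 29.2 CPM with guide 2, against 12.9, 13.0 and 14.1 CPM in control libraries. The peptide transporter TAP1 rose by 0.59, the class I light chain B2M by 0.32, and HLA-B by 0.27, although reads can be split among HLA genes. Of the 12 class II genes 9 fell and 1 rose in the mean of both guides, with a median of -0.36. With guide 1 alone 4 were called higher and 6 lower, with a median of -0.03, and with guide 2 alone 1 was called higher and 11 lower, with a median of -0.71. Set against guide 1, guide 2 was called lower for 11 of the 12. CIITA, the activator of class II genes, had 70.7, 69.5 and 73.7 CPM with guide 1 and 44.0, 43.7 and 42.5 CPM with guide 2, against 86.3, 82.4 and 81.4 CPM in control libraries. CIITA fell with both guides and lay lowest with guide 2, and the falls of HLA-DOA (-0.84) and HLA-DRA (-0.55) had the same order. The member that rose was CTSS, a lysosomal protease that trims the class II invariant chain (2.40), while that chain, CD74, fell.

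Secreted proteases and their inhibitors split by gene. In the plasminogen system 7 of 8 listed genes passed the filter. In the mean of both guides 4 rose, PLAU among them, and 2 fell, PLAT and SERPINE2. The receptor PLAUR was not called, with a log2 fold change of -0.07. With guide 1 alone 5 were called higher and 0 lower, and with guide 2 alone 4 higher and 2 lower. SERPINE2, an inhibitor of urokinase and thrombin, had 6592, 6697 and 6673 CPM with guide 1 and 4991, 4907 and 4797 CPM with guide 2, against 6520, 6588 and 6783 CPM in control libraries, so that only guide 2 libraries lay apart from the control. All 23 matrix metalloproteinases (MMP) and tissue inhibitors passed, and 14 rose and 7 fell. The collagenase MMP1 had 38.3, 39.1 and 39.4 CPM with guide 1 and 49.7, 51.8 and 47.3 CPM with guide 2, against 5.34, 5.53 and 6.00 CPM in control libraries. MMP10, stromelysin 2, had 4.63, 5.02 and 5.26 CPM with guide 1 and 6.58, 6.22 and 6.14 CPM with guide 2, against 0.153, 0.298 and 0.244 CPM in control libraries. Both rose in every knockout library, MMP1 7.82-fold and MMP10 23.9-fold. MMP3, stromelysin 1 (4.57), and MMP13, collagenase 3 (2.25), which lie on the same arm of chromosome 11, rose too. MMP8, the neutrophil collagenase in that cluster, had 4.41, 4.83 and 4.46 CPM with guide 1 and 2.46, 2.50 and 2.04 CPM with guide 2, against 15.3, 14.1 and 14.9 CPM in control libraries. MMP8 thus fell by 2.17, and the membrane-bound MMP17 (-2.08) and MMP16 (-1.14) fell too. The inhibitor TIMP1 rose by 0.99 while TIMP3 fell.

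AP-1, the dimer of JUN and FOS proteins, binds TGANTCA, and MMP10 is the one gene of the 12 on the protease list with a RefSeq promoter entry to hold these letters (8.33%). They were in the window of 161 of 1266 genes at least 2-fold higher in knockout cells (12.7%) and of 28 of 431 at least 2-fold lower (6.5%), against 816 of 14264 tested genes (5.72%). The 120 bases upstream of MMP10 (chr11:102780629-102780748, minus strand) are shown with the match in capitals.
MMP10: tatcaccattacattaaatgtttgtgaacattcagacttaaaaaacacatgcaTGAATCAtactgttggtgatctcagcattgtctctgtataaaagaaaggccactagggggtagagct
Of 13 AP-1 family genes that passed, 7 rose and 3 fell, none by 2-fold. JUNB rose by 0.36, and FOSL1, a FOS protein that MAP kinase signalling induces, had 91.8, 93.5 and 92.6 CPM with guide 1 and 86.3, 84.5 and 82.1 CPM with guide 2, against 131, 139 and 141 CPM in control libraries.

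Complement genes rose, both components and regulators. Of 16 listed genes, all measured, 13 rose and 1 fell, with a median of 1.31. C3, the central component, had 202, 201 and 199 CPM with guide 1 and 165, 158 and 171 CPM with guide 2, against 26.3, 28.1 and 28.4 CPM in control libraries. It rose 6.59-fold, with no overlap, and lay a little higher with guide 1. Clusterin, CLU, rose by 3.13 and CD59, which blocks the membrane attack complex, by 0.32. C4A rose by 1.62, a value that its near-identical copy C4B makes uncertain.

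Cytokines, tumour necrosis factor (TNF) receptors and NF-kB genes rose more often than they fell. Of 48 listed genes 43 passed, 32 rose and 6 fell, and the median was 0.77. The interleukin IL1B had 3.73, 3.69 and 4.13 CPM with guide 1 and 3.49, 3.98 and 3.52 CPM with guide 2, against 0.430, 0.558 and 0.445 CPM in control libraries. CCL2, which draws monocytes, rose by 2.75, IL11 by 1.86 and CXCL8, which draws neutrophils, by 1.29. CXCL1, which acts on the same receptor as CXCL8, had 3.69, 3.66 and 3.62 CPM with guide 1 and 2.33, 2.04 and 2.24 CPM with guide 2, against 8.69, 7.73 and 8.53 CPM in control libraries. CXCL1 thus fell by 1.55, as did IL24 by 1.32. The NF-kB feedback inhibitors NFKBIA (1.12) and TNFAIP3 (1.41) rose. Of 18 measured checkpoint and stress ligands 12 rose and 2 fell. CD274, which encodes PD-L1, had 4.33, 4.63 and 5.16 CPM with guide 1 and 4.72, 5.23 and 5.07 CPM with guide 2, against 1.91, 1.41 and 2.02 CPM in control libraries, and PDCD1LG2, which encodes PD-L2, rose by 3.55 to levels of 1.11 to 1.58 CPM.

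Genes of TGF-beta signalling rose, all 6 measured ligands, 12 of 14 targets and 4 of 7 receptors and SMADs. Over the whole list 27 of 28 genes passed, 22 rose and 3 fell, with a median of 0.74. The ligands TGFB1 (0.61) and TGFB2 (0.93) rose. TGFBR2, the receptor that binds the ligand first, had 139, 140 and 146 CPM with guide 1 and 171, 165 and 168 CPM with guide 2, against 60.4, 60.9 and 60.8 CPM in control libraries. It rose 2.55-fold without overlap, while its partner TGFBR1 was not called, at 0.03. The targets that rose included TGFBI and the feedback inhibitors SKIL (0.74) and SMAD7 (0.56). Collagens and matrix proteins did not move one way, with 13 of 36 higher (36.1%) and 17 lower (47.2%), against 5712 and 5533 of 15826 protein-coding genes. COL1A1, a fibrillar collagen, rose by 1.37 and the proteoglycan LUM by 1.77, while the proteoglycan BGN fell by 1.66. LOXL4, a lysyl oxidase that crosslinks collagen, had 314, 317 and 314 CPM with guide 1 and 161, 159 and 162 CPM with guide 2, against 675, 688 and 700 CPM in control libraries.

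Genes of epithelial junctions and keratins rose. Of 34 listed keratinocyte, hemidesmosome and desmosome genes 31 passed, 25 rose and 2 fell, with a median of 1.08, and 16 rose at least 2-fold. All 7 measured desmosome genes rose. DSP, desmoplakin, had 68.8, 68.7 and 71.2 CPM with guide 1 and 77.8, 76.9 and 81.2 CPM with guide 2, against 27.8, 28.9 and 29.7 CPM in control libraries. JUP, plakoglobin, rose by 1.76, and PKP2, plakophilin 2, by 2.34. Of 9 hemidesmosome genes 7 rose, among them ITGB4, the beta chain of their integrin (1.40), and LAMB3, a chain of laminin 332 (1.95). LAMB3 had 70.1, 68.7 and 66.9 CPM with guide 1 and 90.0, 90.5 and 94.4 CPM with guide 2, against 20.0, 20.8 and 20.6 CPM in control libraries. SFN, the epithelial 14-3-3 protein, rose by 3.15, and keratin KRT80 by 1.08 to 162 to 209 CPM. KRT6A rose by 2.29 at levels of 0.684 to 1.55 CPM, uncertain because its copies share reads. Defining keratinocyte markers summed to 59.5 to 63.6 CPM with guide 1 and 55.0 to 59.8 CPM with guide 2, against 53.4 to 58.5 CPM in control libraries, with KRT10 and KRT14 the members above 1 CPM. Of these 8 markers KRT1, DSG3, IVL and LORICRIN did not pass the filter, and TP63 was near 0.

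Neural crest-like genes fell and pigment genes did not move one way. Of 21 listed neural crest-like genes 20 passed, 14 fell and 5 rose, with a median of -0.55. SOX10, the transcription factor that maintains neural crest and melanocyte identity, had 460, 465 and 453 CPM with guide 1 and 282, 270 and 271 CPM with guide 2, against 853, 880 and 919 CPM in control libraries. ERBB3, a receptor for neuregulins, had 304, 308 and 312 CPM with guide 1 and 169, 162 and 161 CPM with guide 2, against 635, 651 and 656 CPM in control libraries. SOX10 was 2.49-fold and ERBB3 2.88-fold lower in knockout cells, and guide 2 libraries were lowest for both. The nerve growth factor receptor NGFR fell by 1.35, and the calcium-binding protein S100B by 1.44. The 5 neural crest-like genes that rose were AQP1, SLITRK6, L1CAM, TFAP2A and ITGA1. For L1CAM the call was lost without control replicate 1 (0.05, adjusted p = 0.16 in edgeR). MITF, the master factor of pigmentation, had 59.1, 58.1 and 59.2 CPM with guide 1 and 57.7, 53.3 and 52.1 CPM with guide 2, against 79.1, 78.8 and 79.6 CPM in control libraries. Of 16 measured pigment genes 8 rose and 3 fell. The melanosome protein MLANA rose by 0.73 and the pigment enzyme DCT fell by 2.07, both at levels of no more than 1.51 CPM in any of the 9 libraries. Among genes of the undifferentiated state 13 of 23 rose and 8 fell, and the receptor kinase AXL, often used to mark that state, fell by 0.58. Of 7 measured transcription factors listed for epithelial to mesenchymal transition 2 rose and 5 fell, and ZEB1 fell by 0.83. Of 9 adhesion genes listed with them 4 rose and 3 fell, with a median of 0.79, and N-cadherin, CDH2, fell by 0.90.

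Of 25 measured receptor tyrosine kinases 9 rose (36.0%) and 12 fell (48.0%), with a median of -0.16. Over all 15826 protein-coding genes tested 5712 rose and 5533 fell, so the share of rises was near that background. EGFR had 48.5, 49.7 and 51.4 CPM with guide 1 and 72.2, 69.5 and 70.2 CPM with guide 2, against 17.3, 16.8 and 16.9 CPM in control libraries. It rose 3.49-fold, with the highest levels in guide 2 libraries. Of 21 measured growth factor ligands 12 rose and 3 fell, among them the EGFR ligands AREG (1.83) and HBEGF (1.17), while TGFA fell by 0.22 in the mean of both guides, with 0.10 for guide 1 and -0.54 for guide 2. NRP1, a coreceptor for semaphorins and growth factors, had 283, 282 and 285 CPM with guide 1 and 265, 265 and 268 CPM with guide 2, against 85.9, 82.9 and 82.6 CPM in control libraries. Of 27 genes that report MAP kinase output 15 fell and 9 rose, by a median of -0.28. The feedback inhibitor SPRY4 had 197, 194 and 191 CPM with guide 1 and 120, 122 and 116 CPM with guide 2, against 440, 443 and 446 CPM in control libraries. The transcription factor MYC fell by 1.22 and ETV4 by 0.43, while the phosphatase DUSP6 rose by 0.25. CCND1, cyclin D1, had 374, 377 and 380 CPM with guide 1 and 252, 251 and 241 CPM with guide 2, against 431, 433 and 410 CPM in control libraries.

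Genes of DNA replication and mitosis fell together. All 36 listed S phase genes were called lower, by a median of -0.69, and so were 29 of 30 G2/M genes, by a median of -0.47, none of them by 2-fold. MCM7, a subunit of the replicative helicase, had 227, 221 and 230 CPM with guide 1 and 227, 239 and 237 CPM with guide 2, against 378, 381 and 390 CPM in control libraries. MCM10, which helps to start replication, fell by 0.95 on the log2 scale, and the clamp PCNA fell by 0.49. CDK1, the kinase of mitotic entry, had 69.1, 70.3 and 69.5 CPM with guide 1 and 68.2, 69.7 and 65.0 CPM with guide 2, against 130, 119 and 128 CPM in control libraries. The guides lay close together for MCM7 and CDK1. Over the S phase list 1 gene was called higher with guide 2 than with guide 1 and none lower, while 14 of 30 G2/M genes were called higher with guide 2 and none lower, with medians of -0.54 for guide 1 and -0.42 for guide 2. CDKN1A, the inhibitor p21, had 285, 287 and 286 CPM with guide 1 and 275, 272 and 270 CPM with guide 2, against 144, 145 and 146 CPM in control libraries, a 1.93-fold rise. Of 23 measured p53 targets, a list that CDKN1A belongs to, 19 rose and 1 fell, by a median of 0.32, among them the death receptor FAS (1.33) and MDM2 (0.32). Of 11 genes of the BCL2 family that promote cell death 9 rose and 1 fell, such as BAX by 0.22, while BCL2L11, which encodes BIM, was not called, at -0.05.

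Promoters of mitotic genes are known for CCAAT boxes, which the factor NF-Y binds. The letters CCAAT, on either strand, were in the window of 17 of 24 G2/M genes with a RefSeq promoter entry (70.8%) and of 19 of 32 S phase genes (59.4%), against 5175 of 14264 tested genes (36.3%). Over all genes at least 2-fold lower in knockout cells the share was 153 of 431 (35.5%), and over those at least 2-fold higher it was 390 of 1266 (30.8%). In other lists the share was 14 of 19 for genes of cholesterol and fatty acid synthesis (73.7%), and 50% for MHC class I and for the metalloproteinases and their inhibitors. The 120 bases upstream are shown for the kinesin KIF20A (chr5:138178992-138179111, plus strand), which fell by 0.72, and the kinetochore protein CENPF (chr1:214603075-214603194, plus strand), which fell by 0.70, with boxes on either strand in capitals.
KIF20A: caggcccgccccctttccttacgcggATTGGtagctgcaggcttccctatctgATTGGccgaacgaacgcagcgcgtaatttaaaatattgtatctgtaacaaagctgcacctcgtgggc
CENPF: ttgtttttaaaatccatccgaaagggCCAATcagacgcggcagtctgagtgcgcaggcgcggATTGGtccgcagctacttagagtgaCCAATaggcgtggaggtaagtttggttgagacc

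Most listed genes of growth and biosynthesis fell. All 32 cytosolic ribosomal protein genes were called lower, by a median of -0.38, as were 27 of 30 genes of ribosome biogenesis and MYC targets, with 2 higher and a median of -0.34. Ribosomal protein genes share reads with many pseudogenes. RPL3 had 1609, 1667 and 1657 CPM with guide 1 and 1527, 1614 and 1606 CPM with guide 2, against 2176, 2157 and 2275 CPM in control libraries. Of 17 glycolysis genes 16 fell and none rose, and hexokinase HK2, which starts the pathway, fell by 1.26. Of 25 genes of cholesterol and fatty acid synthesis 18 fell and 3 rose. FASN, the fatty acid synthase, had 716, 679 and 681 CPM with guide 1 and 636, 613 and 636 CPM with guide 2, against 1168, 1210 and 1169 CPM in control libraries, without overlap. Lysosome and autophagy genes rose in 21 of 34 cases and fell in 6, by a median of 0.08, with the autophagy receptor SQSTM1 up by 0.75.

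Mitochondrially encoded genes went against the nuclear genes of the respiratory chain. All 13 mitochondrial protein-coding genes were called higher, by a median of 0.49, whereas 20 of 30 nuclear respiratory genes were called lower and 1 higher, by a median of -0.14. MT-CO2, a subunit of cytochrome oxidase, had 1704, 2025 and 1860 CPM with guide 1 and 1802, 1864 and 1783 CPM with guide 2, against 1129, 1126 and 1131 CPM in control libraries. MT-ND1, a subunit of complex I, rose by 0.96, and MT-CYB by 0.60. This set is the same quantity as the mitochondrial share of counts given above, and the part of RNA quality or of library composition in it was not tested.

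Within the complex itself, partners of TADA2B rose. Of the 5 genes of the SAGA acetyltransferase module 4 were called higher and none lower. KAT2B, a catalytic subunit, had 88.9, 84.5 and 84.1 CPM with guide 1 and 73.2, 72.5 and 76.1 CPM with guide 2, against 55.4, 52.6 and 53.9 CPM in control libraries. KAT2A, the other catalytic subunit, rose by 0.43, TADA3 by 0.46 and SGF29 by 0.31. Of 19 genes of the other SAGA modules 9 rose (47.4%) and 5 fell (26.3%), by a median of 0.07. Over all 15826 protein-coding genes tested 5712 rose and 5533 fell. Of 9 genes of the ATAC complex 6 fell (66.7%) and 1 rose (11.1%). YEATS2, the reader subunit of ATAC, had 40.0, 41.6 and 42.1 CPM with guide 1 and 40.6, 40.7 and 41.7 CPM with guide 2, against 70.6, 69.3 and 70.5 CPM in control libraries. TADA2A, the ATAC counterpart of TADA2B, fell by 0.16.

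**Figure D4:**
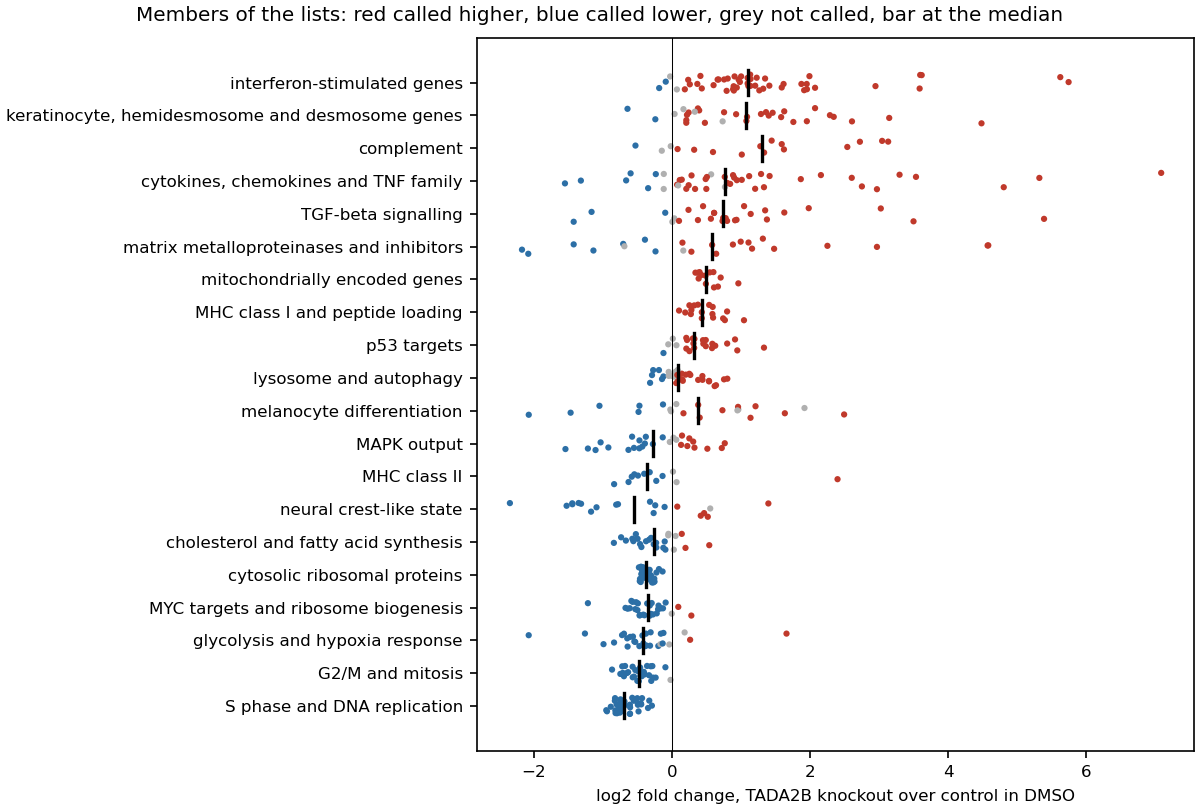
Log2 fold change of each measured member (x axis, mean of both TADA2B guides over control in DMSO) in 20 gene lists, 1 row a list; red members were called higher, blue called lower, grey not called, and the bar is the median. Interferon, junction and complement genes spread to the right of 0, and S phase, G2/M and ribosomal protein genes lie to its left in tight groups.

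The largest rise among well-measured genes that code for no protein was UCA1, a long noncoding RNA first found in bladder cancer, with 31.8, 31.2 and 30.5 CPM with guide 1 and 43.4, 43.6 and 36.9 CPM with guide 2, against 3.25, 3.61 and 3.04 CPM in control libraries. It rose 10.9-fold, with the lack of overlap that the naming rule required. GASAL1 (2.98), LINC00973 (2.71), LINC02015 (2.54) and LINC02593 (1.97) followed. The largest falls were ALDH1A3-AS1 (-1.69), HPN-AS1 (-1.61), TEX41 (-1.58), CSPG4P13, a pseudogene that shares sequence with CSPG4 (-1.56), and STARD4-AS1 (-1.49), and the antisense genes among them are uncertain because the strand setting of the counting is not given. By gene type, 584 of 2192 lincRNAs rose and 276 fell (39.2% called), while of 2548 processed pseudogenes 130 rose and 716 fell (33.2% called), against 29.3% of all genes tested called higher, 28.6% lower and 57.9% either way. Processed pseudogenes named for a ribosomal protein had 6 of 472 members higher, 188 lower and a median of -0.35.

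The guides differed from each other for fewer genes than from the control, and guide 2 gave the larger changes. Guide 1 gave 13104 calls (52%), of which 2070 were at least 2-fold higher (8.21%) and 733 at least 2-fold lower (2.91%). Guide 2 gave 13838 (54.9%), of which 2424 were at least 2-fold higher (9.62%) and 1020 at least 2-fold lower (4.05%), against the same 3 control libraries. Set against each other, guide 2 and guide 1 differed for 3008 genes (11.9%), 1170 higher (4.64%) and 1838 lower (7.29%) with guide 2. By at least 2-fold they differed for 209 genes (0.829%), 81 higher (0.321%) and 128 lower (0.508%). Of the 899 genes at least 2-fold lower in the mean of both guides, the fall was larger with guide 2 for 247 (27.5%) and smaller for 6. Of the 2279 at least 2-fold higher, the rise was larger with guide 2 for 396 (17.4%) and smaller for 43. FLT1, a receptor for vascular endothelial growth factor, rose with guide 1 and fell slightly with guide 2, with 32.9, 32.8 and 33.5 CPM with guide 1 and 14.3, 14.4 and 12.6 CPM with guide 2, against 15.1, 16.6 and 15.9 CPM in control libraries. The cell cycle inhibitor CDKN1C fell with each guide but further with guide 2, at 13.9, 14.8 and 14.0 CPM with guide 1 and 5.88, 5.65 and 5.09 CPM with guide 2, against 18.1, 18.9 and 17.8 CPM in control libraries.

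The same contrast was made in the 18 drug-treated libraries, which share no library with the DMSO comparison. The knockout effect was called for 14593 genes in DMSO (57.9%), 14074 in trametinib (55.9%) and 14004 in vemurafenib (55.6%). At least 2-fold changes were 2122 higher (8.42%) and 1199 lower (4.76%) in trametinib, and 2134 higher (8.47%) and 1210 lower (4.8%) in vemurafenib. Of the 2279 genes at least 2-fold higher in DMSO, 1475 were also called higher in trametinib (64.7%) and 1539 in vemurafenib (67.5%), while 138 and 114 were called lower. Their median knockout effect was 1.78 in DMSO, 1.06 in trametinib and 1.11 in vemurafenib. Of the 899 genes at least 2-fold lower in DMSO, 487 were called lower in trametinib (54.2%) and 525 in vemurafenib (58.4%), with medians of -1.41 in DMSO, -0.71 in trametinib and -0.81 in vemurafenib. These genes were chosen for their size in DMSO, so the differences between these medians are given as a description. Across the 25199 genes, which are not independent replicates, the knockout effect in DMSO had a Pearson r of 0.554 with that in trametinib and 0.589 with that in vemurafenib. The interaction, knockout effect in drug minus that in DMSO, was called for 11066 genes with trametinib (43.9%) and for 10699 with vemurafenib (42.5%). It reached 2-fold for 2263 genes with trametinib (8.98%), 989 above 0 (3.92%) and 1274 below (5.06%), and for 1974 with vemurafenib (7.83%), 834 above 0 (3.31%) and 1140 below (4.52%).

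By group, the lists differed in how far the effect in DMSO was also seen with drug. The S phase list, with 36 of 36 genes lower in DMSO, had 13 higher and 12 lower in either drug, with medians of 0.01 in trametinib and 0.05 in vemurafenib. For MCM10 the knockout effect was -0.95 in DMSO, 0.86 in trametinib and 1.11 in vemurafenib, and both interactions were called. TGF-beta genes had a median of 0.74 in DMSO but 0.08 in trametinib and 0.10 in vemurafenib, and TGFBR2, at 1.35 in DMSO, was at -0.47 in trametinib and -0.25 in vemurafenib, also with both interactions called. KAT2B was at 0.56 in DMSO, -0.36 in trametinib and -0.79 in vemurafenib. Keratinocyte and junction genes had medians of 1.08 in DMSO, 1.39 in trametinib and 1.24 in vemurafenib, and complement genes of 1.31, 1.48 and 1.26 in the same order. Neural crest-like genes had medians of -0.55 in DMSO, -1.03 in trametinib and -1.11 in vemurafenib. The collagen crosslinking enzyme LOXL4 was at -1.61 in DMSO, 1.5 in trametinib and 1.14 in vemurafenib. RXRG was at -2.35 in DMSO, -2.29 in trametinib and -2.33 in vemurafenib, and neither of its interactions was called, with values of 0.06 and 0.02.

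**Figure D5:**
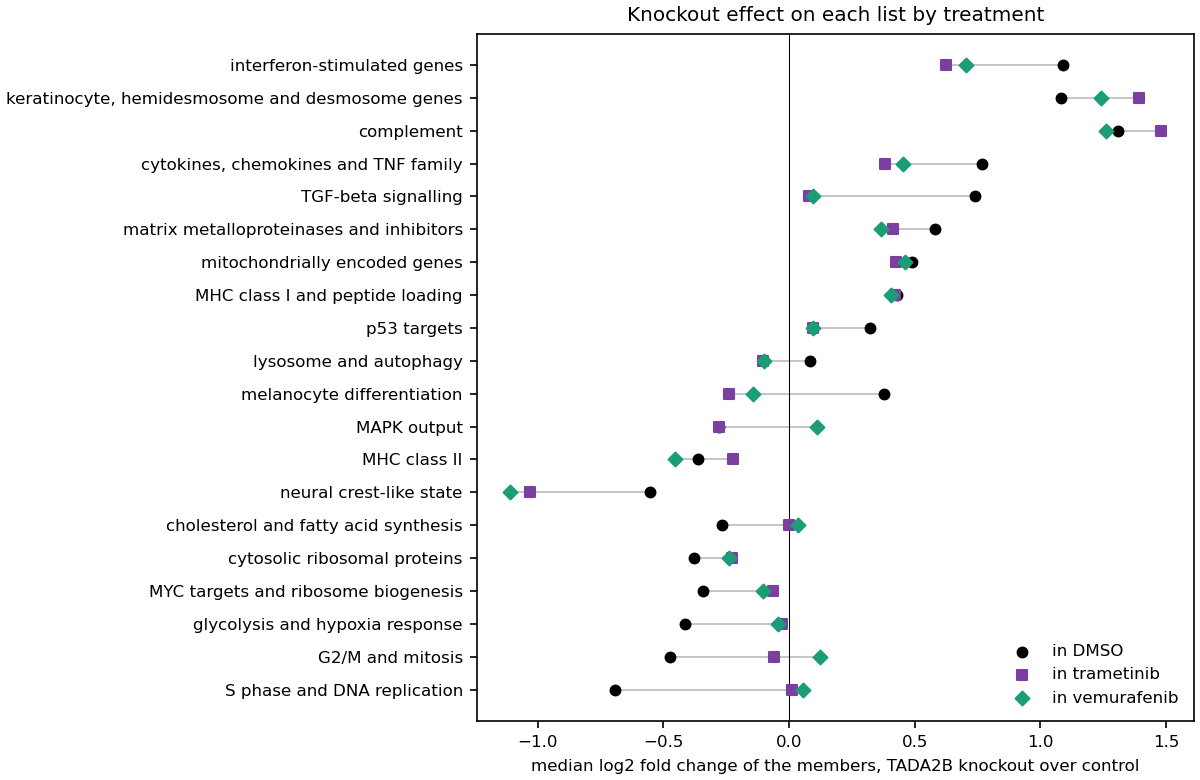
Median log2 fold change of the measured members of 20 gene lists (x axis, mean of both TADA2B guides over control) in DMSO (black circles), trametinib (purple squares) and vemurafenib (green diamonds), 1 row a list. S phase, G2/M and TGF-beta lists lie away from 0 in DMSO and near 0 in either drug, while complement and MHC class I lists lie at like values in all 3.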

How the data were processed

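PolyA-selected RNA of A375 cells was sequenced from stranded mRNA libraries (KAPA Stranded mRNA-Seq, per the labels' protocols). The authors deposited 1 table of raw read counts for 58721 genes in 27 libraries. Reads were handled with bcl2fastq, HISAT2 and HTSeq on hg38, per the submitters' processing notes. No source used here gives the tool versions, the annotation release or the strand setting of the counting.

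From these deposited counts, genes were filtered with filterByExpr and scaled by TMM. edgeR 4.0.16 (R 4.3.3) fitted its robust quasi-likelihood model with 1 mean for each of 9 groups of 3 libraries, leaving 18 residual degrees of freedom. Called means a Benjamini-Hochberg adjusted p under 0.05 over all 25199 genes tested. Per-library values are CPM scaled by TMM, fold changes are fitted values, ± gives the SE, and library totals ranged from 67502300 to 92513726 counts over all 27 libraries. Coordinates of TADA2B are from GENCODE on hg38, and promoter sequences are from RefSeq on GRCh38.p14.

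Genes were named by rule. The first part took the 15 largest called rises and falls among protein-coding genes with a mean log2 CPM of at least 1 in DMSO, called with each guide and with all 6 knockout libraries on one side of the controls. The second part took the 10 largest rises and falls in CPM, and the third the 5 largest among genes of other types. The 5 largest each way were taken for the guide difference and the interactions, and further genes came from 46 gene lists. The members and lists were chosen with earlier results of these data known. Alternatives covered scaling, test, filter, samples fitted, the replicate number and each library left out. The scripts were checked on simulated counts. Some genes that the rule names are not reported here.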

Additional observations from a re-analysis of the deposited data

Results flagged for a closer look

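Differences between the guides and between treatments passed their own test in edgeR's quasi-likelihood fit for the following genes, which are the largest each way with values on the log2 scale. For guide 2 minus guide 1 in DMSO, the values below 0 were -1.36 for CDKN1C, -1.31 for FXYD3, -1.27 for ARPP21, -1.26 for FLT1 and -1.20 for MGAM2. The values above 0 were 0.98 for CHST15, 0.95 for TNS4, 0.92 for TRIML2, 0.91 for CYP24A1 and 0.90 for CNN1.

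For the knockout effect in trametinib minus that in DMSO, the lowest values were -4.41 for GRIN2A, -4.34 for LGR6, -4.24 for SLC6A12, -4.16 for GRHL3 and -4.01 for CCN3. The highest were 4.11 for A4GALT, 3.78 for ADGRF1, 3.68 for PDZD2, 3.31 for FGFBP1 and 3.17 for ANO4, which was among the largest falls in DMSO. For vemurafenib the lowest were -3.85 for GRIN2A, -3.81 for SLC6A12, -3.63 for LGR6, -3.53 for NAV2 and -3.50 for PKIB, and the highest were 3.30 for ADGRF1, 3.22 for RTL1, 3.20 for A4GALT, 3.16 for C4orf19 and 2.89 for LPL. Both interactions subtract the same DMSO libraries, so genes that stand in both are not independent. LGR6 was near 0 in control libraries in DMSO, so its size depends on the prior count. Its SE was 0.42 with trametinib and 0.47 with vemurafenib. Other genes with wide SEs were FGFBP1 (0.71) and GRHL3 (0.37) with trametinib and RTL1 (0.49) with vemurafenib.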

How the results depend on the processing

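The counts of genes called by the knockout in DMSO stayed within 1.5 times under every alternative run, from 12819 called with a filter at CPM above 1 in at least 3 libraries to 14685 with the 9 DMSO libraries fitted alone. That stricter filter tests fewer low genes and lowered the counts at least 2-fold higher and lower: to 1271 and 454 for the knockout in DMSO, 1214 and 351 for guide 1, 1407 and 593 for guide 2, 20 and 83 for guide 2 minus guide 1, 1169 and 640 for the knockout in trametinib, 1174 and 625 in vemurafenib, 631 and 792 for the trametinib interaction, and 538 and 716 for the vemurafenib interaction. Leaving out 1 library at a time gave 2172 to 2241 rises and 822 to 927 falls of at least 2-fold in DMSO.

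TADA2B was called in the knockout effect with DESeq2 size factors (-0.0874, adjusted p = 0.04 in edgeR) and with the DESeq2 Wald test (-0.0875, adjusted p = 0.0305). Its guide 2 effect was lost without the low-count filter (-0.115, adjusted p = 0.0525 in edgeR). With 1 library left out the knockout effect on TADA2B ranged over -0.101 to -0.0589, called without control replicate 1 or guide 2 replicate 3, and the guide 2 effect over -0.149 to -0.0895, lost without control replicate 3 or guide 2 replicate 2. The cause was not tested.

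The median of the list of acetyltransferases and deacetylases, -0.01, changed sign with no filter (0.00255), the stricter filter (0.00183), the groups compared alone (0.000749) and without control replicate 1 (0.0217), guide 1 replicate 1 (0.00755) or guide 2 replicate 1 (0.00837), and ranged over -0.0265 to 0.0217 with 1 library left out. The median of the keratinocyte defining markers, 0.823, changed sign to -0.22 under the stricter filter. With the 6 knockout libraries as one group, the calls of ANKRD37, ASNS, CD47, FLT1, ITGA6, KRT14, MGAM2, NOTUM, OCA2, PLAT and SERPINE2 were lost.

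Correlations of deviations from the group mean were -0.0247 to 0.0439 for same-numbered libraries and -0.0317 to 0.0297 for differently numbered ones. Whether same-numbered libraries shared a culture or preparation was not tested. The fit with a replicate block called 14528 genes, 14479 of them shared. Depth limits genes near 0, whose fold changes depend on few counts.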
